A study of Caenorhabditis elegans with 21 samples.

Results

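The genes described here are the proteases, lysozymes and saposin-like proteins of the Caenorhabditis elegans gut lumen and lysosomes, taken as every gene of the mRNA table whose name is cpr, asp, lys, ilys or spp followed by a number. There were 50 such genes among 21035 in the table: 6 cpr genes (cathepsin B-like cysteine proteases), 6 asp genes (cathepsin D-like aspartic proteases), 10 lys genes (lysozymes), 5 ilys genes (invertebrate-type lysozymes) and 23 spp genes (saposin-like proteins). The rule used names alone and no measured value. The study crossed mothers that carried fem-1(hc17ts) and the transgene of TX189(OMA-1::GFP), titled as N2 background, with males of the Hawaiian strain CB4856, and measured RNA in sorted hybrid 1-cell embryos, in both parental strains and in sperm, to tell paternal from maternal RNA. OMA-1::GFP is an oocyte protein fused to a fluorescent tag, and fem-1(hc17ts) is a temperature-sensitive mutation that leaves hermaphrodites without sperm at the restrictive temperature. All samples carry the label 24 C.

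Of 15 mRNA libraries, 12 form 4 groups of 3: hybrid 1-cell embryos with poly(A) selection, the same kind of embryos after removal of rRNA (RiboMinus), adult CB4856 whole worms and adult maternal-strain whole worms, both with poly(A) selection. No sex is given for the worm libraries. The other 3 mRNA libraries have no replicate. They are a low-purity preparation of CB4856 sperm, a high-purity one treated with pronase, and sperm of fog-2(q71) males, whose strain background is not labelled. Small RNA was measured in single libraries, of which those of N2 oocytes, hybrid 1-cell embryos, TX189(OMA-1::GFP) 1-cell embryos and fog-2(q71) sperm are used.

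The intestine of C. elegans is a tube of few cells that secretes digestive enzymes into its lumen and is filled with lysosome-like granules, where cysteine and aspartic proteases break down proteins. Lysozymes cut the cell walls of the bacteria that worms eat. Saposin-like proteins of the spp family include the caenopores, such as spp-1 and spp-5, which open pores in bacterial membranes and take part in killing bacteria in the gut. Many of these genes are switched on in differentiated intestine under the GATA factor ELT-2, and several respond to infection.

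The poly(A) embryo libraries held 106.29 to 136.11 M mapped reads, the RiboMinus embryo libraries 4.56 to 13.88 M, and the worm libraries 31.70 to 156.10 M. The depth of the sperm libraries is unknown. Replicates 1 and 2 of a group were no further apart than the sampling of read pairs makes them (mean dispersion 0.96 to 1.02, where 1 is sampling alone). They were averaged and counted once, which left n = 2 per group. Replicate 3 differed from replicate 1 far more in poly(A) embryos (mean dispersion 608.54) than in CB4856 worms (7.43) or maternal-strain worms (5.94). The medians over genes were 27.95, 0.55 and 0.55, where replicates 1 and 2 of a group had 0.43 to 0.46. For many genes the SD between worm samples therefore holds little beyond read sampling. Nothing in the labels says which libraries came from separate cultures, so the p-values measure the spread between these libraries only. Values are RPKM, reads scaled by gene length and library size, and means are given ± SD with n = 2. The sperm columns share no read step with the others and list nearly all genes above 0 (20946 to 20978 of them, against 9493 to 17937 in the other libraries). Sperm values are therefore set beside worm values without a comparison.

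In both worm strains some of these genes were abundant and others were barely detected. Together they made up 1.94 to 2.04% of all RPKM in the CB4856 libraries and 2.19 to 2.24% in the maternal-strain libraries. The saposin-like genes held most of this, 1.27 to 1.40% across the 6 worm libraries, followed by the aspartic proteases (0.310 to 0.414%) and the cysteine proteases (0.243 to 0.276%). The level within the families was very uneven. In maternal-strain worms 15 genes had a mean of at least 100 RPKM, 17 lay between 1 and 100 RPKM, and 18 were under 1 RPKM. The counts were also 15, 17 and 18 in CB4856 worms.

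**Figure D1:**
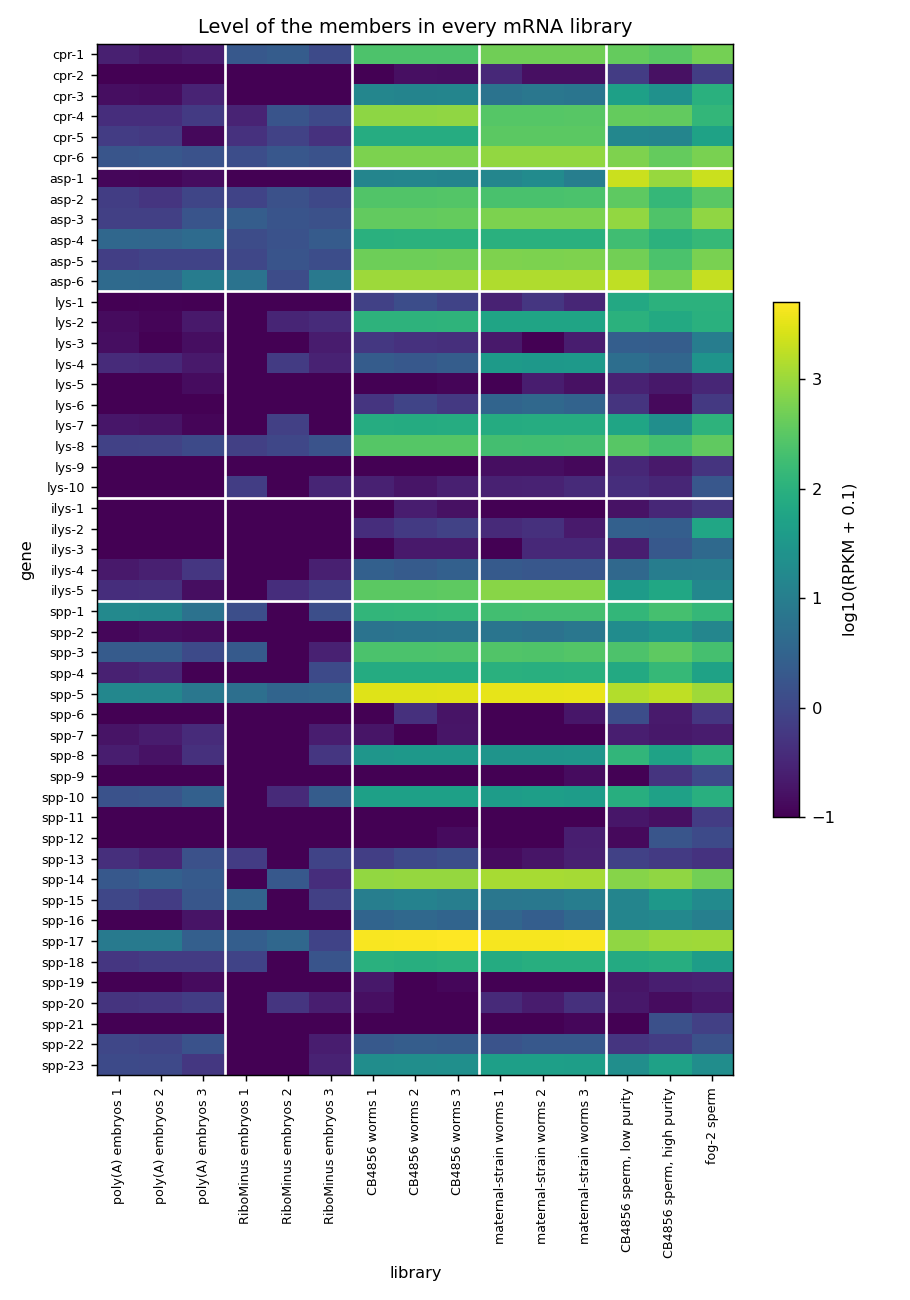
Level of all 50 genes (rows, grouped by family with white lines) in the 15 mRNA libraries (columns), as log10(RPKM + 0.1). The 6 embryo columns are low in nearly every row, 16 genes stay under 1 RPKM in all worm libraries, and the sperm columns are on a scale of their own.

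Among the saposin-like genes, spp-17 led the table, ranking 12th of all genes in CB4856 worms and 14th in maternal-strain worms. Its RPKM was 4644, 4755 and 5060 in the CB4856 libraries and 4387, 4425 and 4589 in those of the maternal strain. The caenopore gene spp-5 followed with 2985, 3026 and 3147 RPKM in CB4856 and 3378, 3359 and 3467 RPKM in the maternal strain. Next came spp-14 at 902.1 ± 11.5 and 1205 ± 14.9 RPKM, and spp-3 at 239.1 ± 4.57 and 269.8 ± 5.90 RPKM, in CB4856 and maternal-strain worms.

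Among the aspartic proteases, asp-6 was highest, with 1036, 1025 and 1033 RPKM in CB4856 and 1382, 1389 and 1404 RPKM in the maternal strain. It was followed by asp-5 (475.2 ± 7.52 and 617.1 ± 12.7 RPKM), asp-3, which acts in lysosomes and in necrotic cell death (380.0 ± 4.66 and 600.7 ± 10.1 RPKM), and asp-2 (275.5 ± 12.2 and 228.0 ± 5.63 RPKM). The gene asp-4, also known from necrotic cell death, stood at 98.69 ± 0.823 and 95.15 ± 0.130 RPKM. The lowest of the 6 asp genes in worms was asp-1, which encodes an intestinal aspartic protease, at 13.59 ± 0.906 and 13.35 ± 4.23 RPKM.

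The order of the cysteine proteases differed between the strains. In CB4856 worms cpr-4 led at 826.4 ± 16.8 RPKM, followed by cpr-6 (607.1 ± 0.388), cpr-1 (247.3 ± 1.24) and cpr-5 (81.15 ± 0.176). In maternal-strain worms cpr-6 led at 864.7 ± 10.7 RPKM, followed by cpr-1 (475.9 ± 3.37), cpr-5 (329.8 ± 0.415) and cpr-4 (297.2 ± 3.18). The lysozymes were led by lys-8, which is induced by bacterial infection, at 292.4 ± 4.46 RPKM in CB4856 and 195.5 ± 3.32 RPKM in the maternal strain. The gene lys-7, a defence gene downstream of insulin and TGF-beta signalling, was at 80.38 ± 0.199 and 81.60 ± 0.407 RPKM. Only 1 of the 5 invertebrate-type lysozymes was abundant, ilys-5, at 340.0 ± 10.3 RPKM in CB4856 and 743.9 ± 11.5 RPKM in the maternal strain. Next in that family was ilys-4, at 2.50 ± 0.182 and 1.86 ± 0.113 RPKM. Among the rest of that family, under 1 RPKM in every worm library, were ilys-2 at 0.589 ± 0.233 and 0.216 ± 0.133 RPKM and ilys-3 at 0.0834 ± 0.0391 and 0.189 ± 0.0947 RPKM, in CB4856 and maternal-strain worms.

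Genes next to each other on a chromosome could lie far apart in level. All 50 names were found in the RefSeq annotation of assembly WBcel235, where 18 of the genes lie in 6 runs of adjacent protein-coding genes. That annotation holds 71 protein-coding genes with names of this kind, so the 50 genes described here do not cover the families completely. The longest run holds spp-2, spp-3, spp-4, spp-5 and spp-6. In maternal-strain worms spp-5 was at 3418 ± 69.8 RPKM, spp-3 at 269.8 ± 5.90, spp-4 at 96.23 ± 1.24, spp-2 at 6.75 ± 0.657 and spp-6 at 0.0445 ± 0.0629 RPKM. In the run of lys-1, lys-2 and lys-3, lys-2 stood at 55.22 ± 0.374 RPKM, while lys-1 and lys-3 were at 0.272 ± 0.0668 and 0.0950 ± 0.0575 RPKM. The adjacent pair spp-17 and spp-23 was at 4497 ± 130 and 44.44 ± 1.36 RPKM.

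The first comparison set the hybrid 1-cell embryos against worms of the mother's strain. Most of these mRNAs were scarce in the embryos or listed at 0. Together they made up 0.00631 to 0.00711% of all RPKM in the poly(A) embryo libraries and 0.00418 to 0.00530% in the RiboMinus libraries. In bulk samples such as whole worms, a difference in the number of cells of a type and a difference in RNA per cell cannot be told apart. Tests were made for 33 genes, those that reached 1 RPKM in 3 or more of the 12 replicated libraries. In limma 31 of them were lower in poly(A) embryos and 0 higher. An unadjusted p under 0.05 was found for 32 of 33 (97.0%), and for 70.0% of all genes tested. The lower genes comprised 5 of 5 tested cpr genes, 6 of 6 asp, 5 of 5 lys, 2 of 2 ilys and 13 of 15 spp genes. Over all genes tested, 24.5% were called lower and 30.5% higher. To be called, a gene needed a limma p under 0.05 after adjustment and a difference of at least 1 on the log2(RPKM + 1) scale. The median difference was -5.83 for the 33 genes and 0.03 for all 11394 genes tested. Of the 33, 22 passed the filter only with the help of worm libraries, which favours genes that are higher in worms of either strain, so their count is a description. The other 11 passed on embryo libraries alone, and all 11 of these were called lower. The share called lower among all genes that pass on embryo libraries alone was not worked out, so this count is a description too. The other 17 genes were not tested.

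**Figure D2:**
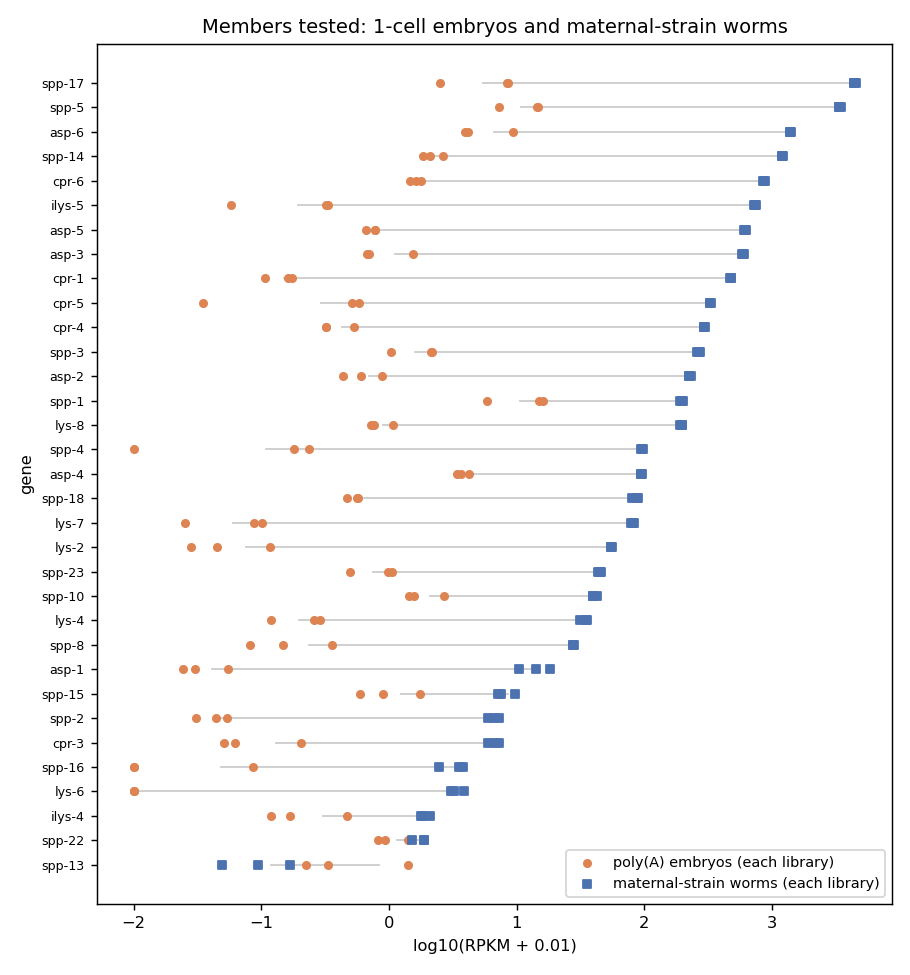
RPKM of the 33 tested genes in each poly(A) embryo library (circles) and each maternal-strain worm library (squares), as log10(RPKM + 0.01), with genes ordered by their level in worms and a grey line joining the group means. Embryo points lie to the left of the worm points for all of these genes except spp-13, where they lie to the right, and the gap is narrowest in absolute terms for spp-22 among the genes lower in embryos.

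On the log2(RPKM + 1) scale the fall was deepest for the saposin-like gene spp-17, which stood at 8.518, 8.352 and 2.516 RPKM in the poly(A) embryo libraries against 4387 RPKM and above in maternal-strain worms. The groups were far apart, and the difference was -9.61 (SE 0.55, adjusted p = 2.18e-05 in limma), or 821-fold in mean RPKM (533-fold without embryo replicate 3 and 1787-fold without replicates 1 and 2). The lysozyme gene ilys-5 was at 0.3135, 0.3223 and 0.0482 RPKM in embryos, with a difference of -9.31 (SE 0.22). Its ratio of mean RPKM was 4064-fold, with 2340-fold without embryo replicate 3 and 15434-fold without replicates 1 and 2. The protease gene cpr-1 was at 0.1628, 0.0977 and 0.1525 RPKM, which rested on 21, 12 and 24 reads, against 475.9 ± 3.37 RPKM in worms, a ratio of 3366-fold that was 3654-fold without replicate 3. For 6 other abundant genes the worm level exceeded the embryo level 829-fold (asp-5), 713-fold (cpr-4), 555-fold (spp-14), 550-fold (cpr-6), 542-fold (asp-3) and 313-fold (spp-5). Of these 6, asp-3 moved by over 1.5 times without replicate 3, to 888-fold. Ratios of other abundant genes moved too. For asp-6 the ratio was 208-fold, and 345-fold without replicate 3. For cpr-5 it was 1163-fold, with 608-fold without replicate 3 and 13274-fold without replicates 1 and 2. The lysozyme gene lys-6 had 0 reads in all 3 poly(A) embryo libraries and was at least 277-fold higher in maternal-strain worms, taking 3 reads over the group as the limit that a count of 0 allows. In all, 12 of the 50 genes (24.0%) were at 0 in every poly(A) embryo library, as were 23.7% of all genes in the table.

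By ratio of mean RPKM, the called genes that fell least were ilys-4 (6.26-fold, 13.9-fold without embryo replicate 3 and 4.04-fold without replicates 1 and 2) and spp-15 (6.90-fold, 11.5-fold without replicate 3), both at low levels in worms. Next came spp-1, spp-10 and asp-4. The gene spp-10, whose product resembles vertebrate prosaposin, was at 1.421, 1.556 and 2.717 RPKM in embryos and 19.2-fold higher in worms, a difference of -3.77 (SE 0.50, adjusted p = 0.000808). The caenopore gene spp-1 was at 16.01, 14.92 and 5.848 RPKM in embryos and 18.5-fold higher in worms (-4.22, SE 0.42, adjusted p = 0.00023), or 33.7-fold without embryo replicates 1 and 2. The protease gene asp-4 was at 3.660, 3.432 and 4.237 RPKM, and 24.4-fold higher in worms. By mean RPKM in poly(A) embryos spp-1 stood beside spp-5 (14.64, 14.44 and 7.295 RPKM) at the top of the 50 genes, although spp-5 was the more abundant in worms by far. In every poly(A) embryo library 9 of the 50 genes reached 1 RPKM, against 33.8% of all genes in the table: cpr-6, asp-4, asp-6, spp-1, spp-3, spp-5, spp-10, spp-14 and spp-17. Of these, asp-6 ranked next after spp-5 and spp-1 by mean RPKM, at 4.122, 3.963 and 9.350 RPKM, and was above both in replicate 3. In RiboMinus embryos asp-6 was the highest of the 50 genes by mean, at 5.763 ± 2.96 RPKM.

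The embryo libraries were not alike. In replicate 3, spp-1, spp-5 and spp-17 were lower and asp-6 was higher than in replicates 1 and 2. The summed level of the 16 intestine marker genes in the table was 31.39 and 31.30 RPKM in replicates 1 and 2 and 77.88 RPKM in replicate 3, most of it from erm-1 (17.24 and 57.09 RPKM in replicates 1 and 3). The part of these shifts in the levels of the protease and saposin-like genes was not tested. Without replicate 3 of the poly(A) embryos the count of genes called lower was again 31, and it was 30 without replicates 1 and 2.

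The 2 tested genes that were not called in this comparison were both saposin-like. The gene spp-22 was at 0.9153, 0.8133 and 1.415 RPKM in embryos and 1.507, 1.859 and 1.881 RPKM in maternal-strain worms, a difference of -0.39 (SE 0.14, adjusted p = 0.0458) that was smaller than the size required. The gene spp-13 was at 0.3221, 0.2130 and 1.399 RPKM in embryos and 0.0393, 0.0840 and 0.1569 RPKM in worms (0.65, SE 0.31, adjusted p = 0.113). Every embryo library was above every worm library for spp-13, and the same held for 2 untested genes named after their values were seen, spp-7 (0.0757, 0.1324 and 0.2826 RPKM against 0 in all 3 worm libraries) and spp-20 (0.4052, 0.4539 and 0.6129 against 0.2668, 0.1268 and 0.3553 RPKM). These levels are low, and spp-7 rested on 9, 15 and 41 reads. Of all genes tested, 30.5% were called higher in embryos. The share of all genes whose libraries lay apart in this way was not worked out, so the 3 genes are given as a description.

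Counts of other gene lists are read against the 24.5% of all genes called lower and 30.5% called higher. Of 16 tested intestine markers 15 fell in embryos. Among them were act-5, the actin of the gut brush border (-6.53), vha-6, a proton pump subunit of the gut surface (-6.02), and elt-2 (-2.99). Of 9 tested intestine regulators, a list that also holds elt-2, 5 fell and 1 rose, pmk-1 (1.24). The regulators daf-16 (-0.36), nhr-49 (-0.38) and elt-7 (0.10) were not called. All 6 yolk protein genes, which the adult intestine makes for the oocytes, fell. Of 20 tested other lysosomal and digestive genes, 11 fell and 3 rose. Those that fell included the cathepsin L gene cpl-1 (-6.90), the cathepsin Z gene cpz-1 (-6.52) and the acid ceramidase gene asah-1 (-6.72). Those that rose were ctns-1, the cystine transporter (2.53), cln-3.2 (1.31) and the calcium channel gene cup-5 (1.22), while cln-3.3, a relative of cln-3.2, fell (-1.53). Among 18 vacuolar ATPase genes 4 rose and 4 fell, both below the share over all genes. The fall was not particular to gut genes. Of 10 tested muscle genes 10 fell and 0 rose, with a median of -5.98. Of 8 tested hypodermis and cuticle genes 5 fell and 2 rose (median -9.46). Of 7 tested pharynx genes 5 fell and 0 rose (median -1.51), and of 8 neuron genes 2 fell and 2 rose. Of 10 tested oocyte and early embryo genes 0 fell and 4 rose. Directions of the genes in these lists were read on the RPKM scale alone.

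A further comparison asked whether the way the embryo libraries were made changes these genes, since poly(A) selection and RiboMinus treatment keep different RNAs. Both comparisons of embryos use the same poly(A) libraries. At these low levels, 2 of the 33 tested genes were higher and 1 was lower with poly(A) selection, where 11.9% and 8.37% of all genes tested were called higher and lower. The gene spp-1 was at 16.01, 14.92 and 5.848 RPKM with poly(A) selection and at 1.255, 0 and 1.242 RPKM after RiboMinus treatment, a difference of 2.48 (SE 0.42, adjusted p = 0.0107). The RiboMinus values of spp-1 rest on 2, 0 and 6 reads. The gene spp-5 was at 14.64, 14.44 and 7.295 RPKM against 5.186, 3.128 and 3.422 RPKM (1.25, SE 0.30, adjusted p = 0.0304). The gene cpr-1 went the other way, at 0.1628, 0.0977 and 0.1525 RPKM with poly(A) selection and 1.889, 2.278 and 1.059 RPKM after RiboMinus treatment (-1.14, SE 0.22, adjusted p = 0.016). For all 3 genes every library of one kind was above every library of the other. Among all 50 genes, 8 had every poly(A) library above every RiboMinus library and 2 had the reverse. The share over all genes was not worked out. The RiboMinus values of spp-5 rest on 10, 6 and 20 reads and those of cpr-1 on 10, 12 and 17. Of 19 settings of the fit, spp-1 was called under 18, cpr-1 under 16 and spp-5 under 10.

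The embryo libraries vary more than the worm libraries, and the fit lets all groups share 1 estimate of the spread. With a spread estimated for each group, spp-1 and cpr-1 were called and spp-5 was not, and with only the 2 embryo groups in the fit no gene of the whole table was called, so the 0 of 33 says nothing particular to these genes. In the limma fit over all groups 9 of 33 (27.3%) had an unadjusted p under 0.05, against 41.3% of all genes tested.

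The worms of the parental strains were compared next. Sperm mRNAs differed too: the summed level of 10 sperm genes was 2637 to 2669 RPKM in CB4856 worms and 18.17 to 19.66 RPKM in maternal-strain worms, and their part in the differences below was not tested. The summed level of the 16 intestine markers was 1065 to 1071 RPKM in CB4856 worms and 1002 to 1015 RPKM in maternal-strain worms. Of the 33 tested genes, 5 were lower and 2 higher in CB4856 worms, which is 15.2% and 6.06%. Over all genes tested, 1.67% were called lower and 13.5% higher. Among the 5, lys-6 reached 1 RPKM in the maternal-strain libraries alone. It passed the filter only through the group where it is higher, so its call is a description. The median difference was -0.02 over the 33 genes and 0.04 over all genes tested. Both this comparison and that with embryos use the maternal-strain libraries.

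**Figure D3:**
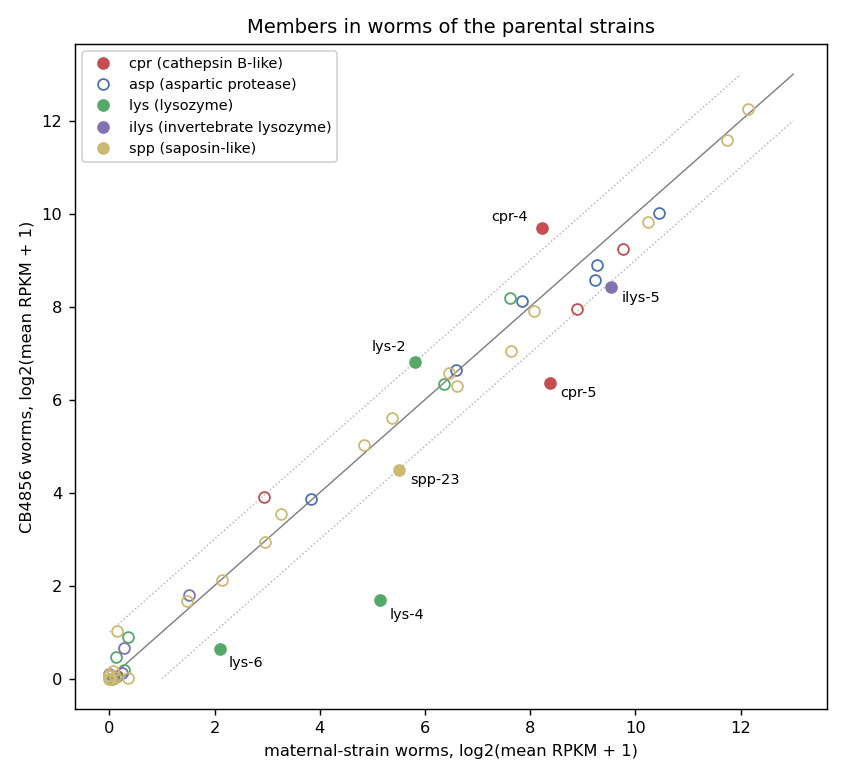
Mean level of the 50 genes in CB4856 worms (vertical) and maternal-strain worms (horizontal), as log2(mean RPKM + 1), coloured by family. Filled circles are the 7 genes called different, the solid line marks equal levels and the dotted lines mark a difference of 1 on this scale; most genes lie near the solid line, and lys-4 lies farthest from it.

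The lysozyme gene lys-4 differed most. It was at 2.196, 1.880 and 2.370 RPKM in CB4856 and 35.87, 31.58 and 35.22 RPKM in the maternal strain, 15.6-fold higher in the latter, with a difference of -3.47 (SE 0.12, adjusted p = 2.31e-06 in limma). Its near neighbour lys-6, in the same run of adjacent genes, was at 0.4431, 0.8091 and 0.4928 RPKM in CB4856 and 3.218, 3.838 and 3.049 RPKM in the maternal strain (-1.46, SE 0.07). The third gene of that run, lys-5, had at most 6 reads in any worm library. No library of one strain overlapped the other for lys-4 or lys-6.

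The cysteine proteases went both ways. The gene cpr-5 was at 80.63, 81.91 and 81.02 RPKM in CB4856 and 331.4, 328.7 and 329.5 RPKM in the maternal strain (-2.01, SE 0.23, adjusted p = 0.000954), a 4.06-fold difference. The gene cpr-4 was at 820.1, 809.0 and 838.2 RPKM in CB4856 and 294.2, 295.6 and 299.4 RPKM in the maternal strain (1.47, SE 0.16, adjusted p = 0.000752), a 2.78-fold difference in the opposite direction. The groups were apart for both genes. The gene cpr-1, whose levels are given above, differed by -0.94 (SE 0.22, adjusted p = 0.0247) and stayed short of the size required. For cpr-6 the difference was -0.51 (SE 0.15, adjusted p = 0.0564).

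The lysozyme gene ilys-5 was lower in CB4856 worms (334.0, 331.4 and 347.3 against 740.2, 731.3 and 752.0 RPKM; -1.13, SE 0.22, adjusted p = 0.0124). The saposin-like gene spp-23 was lower too, at 20.12, 21.38 and 22.30 RPKM against 45.85, 44.96 and 43.48 RPKM (-1.01, SE 0.20, adjusted p = 0.011), while its neighbour spp-17 differed by 0.12 (SE 0.55, adjusted p = 0.94). The lysozyme gene lys-2 was higher in CB4856 worms, at 110.8, 110.8 and 113.0 RPKM against 54.90, 56.07 and 54.96 RPKM (1.01, SE 0.16, adjusted p = 0.00395). The libraries of the strains did not overlap for any of the 3. Such separation was common: among all 50 genes, 19 had every CB4856 library below every maternal-strain library and 15 had every one above. It therefore does not set the called genes apart, and its share over all genes was not worked out. The differences of the 6 aspartic proteases, all short of the size required, lay between -0.66 for asp-3 and 0.27 for asp-2.

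The calls of lys-4 and cpr-4 were made under all 19 settings of the fit and that of cpr-5 under 18 of 19, and that of lys-6 under 17 of the 18 in which it was tested. Those of lys-2 and spp-23, which lie at the size required, were made under 11 and 12 of 19, and that of ilys-5 under 13 of 19. Without replicate 3 of CB4856 worms, or of maternal-strain worms, 3 genes were called lower (lys-4, lys-6 and cpr-5) and 1 higher (cpr-4).

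Among other secreted defence genes, 8 of 13 tested were higher in CB4856 worms, where 13.5% of all genes were. They included abf-1, an antibacterial peptide gene (4.07), the C-type lectin gene clec-86 (2.98), and dod-24, a gene regulated by insulin signalling and infection (2.64). Of 20 tested other lysosomal genes, 2 were higher in CB4856 worms, the palmitoyl-protein thioesterase gene ppt-1 (1.79) and tag-329 (3.04). Of 16 intestine markers 1 was lower, the fatty acid desaturase gene fat-5 (-1.35).

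In the sperm preparations all 50 genes had a value above 0, as had nearly all genes of the table. Together they made up 1.49% of all RPKM in low-purity CB4856 sperm, 0.799% in high-purity CB4856 sperm and 1.47% in fog-2 sperm. Other tissue markers were present as well. The 16 intestine markers summed to 1377, 552.4 and 1429 RPKM in low-purity, high-purity and fog-2 sperm, with 0 of them under 1 RPKM. In worms, on their own scale, they summed to 1002 to 1071 RPKM. The make-up of the sums differed. In sperm fat-6 was at 697.7, 135.9 and 474.1 RPKM and act-5 at 76.8, 62.45 and 50.6 RPKM. In worms fat-6 lay between 32.54 and 61.03 RPKM and act-5 between 438.4 and 533 RPKM. The 4 coelomocyte markers summed to 129.6, 61.54 and 276.2 RPKM in sperm and to 2.466 to 5.878 RPKM in worms. The 10 muscle markers summed to 1736, 2451 and 1560 RPKM, and the 6 yolk protein genes, which males do not normally express, to 1798, 175.3 and 489.1 RPKM, against 15332 to 18302 RPKM in worms. The 10 sperm genes summed to 10250, 30984 and 10732 RPKM. The part of RNA from other cells in the values below was not tested.

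The gene asp-1 was the most abundant of the 50 genes in low-purity CB4856 and fog-2 sperm, at 2131 and 2141 RPKM, where it ranked 22nd and 19th of all genes, and stood at 967.5 RPKM in high-purity sperm. In the 6 worm libraries, on their own scale, it lay between 10.36 and 18.35 RPKM. The lysozyme gene lys-1, which responds to infection, was at 69.62, 107.1 and 103.7 RPKM in low-purity, high-purity and fog-2 sperm, and its worm values were at most 1.194 RPKM. The neighbouring lys-2 was at 100.6, 71.20 and 96.75 RPKM in sperm. Other genes among the 3 highest of a sperm library were asp-6 (1764, 528.3 and 1970 RPKM in low-purity, high-purity and fog-2 sperm), spp-5 (1430, 1829 and 1079 RPKM) and spp-17 (855.5, 1040 and 1079 RPKM). Of the 16 genes under 1 RPKM in every worm library, 7 reached 1 RPKM in a sperm library. The highest of these was ilys-2, at 59.95 RPKM in fog-2 sperm and 2.707 and 2.442 RPKM in the low-purity and high-purity CB4856 sperm. Within libraries, spp-17 was above asp-6 in both worm strains and in high-purity sperm and below it in low-purity CB4856 and fog-2 sperm.

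Between low-purity and high-purity CB4856 sperm, 0 of 37 genes with at least 1 RPKM in either library differed 4-fold in either direction, where 1.85% of all genes were 4-fold higher and 0.860% 4-fold lower in the low-purity library. There is 1 library of each kind, so no test was made. The median difference was 0.04 over the 37 genes and 0.14 over all genes. All 6 asp genes were higher in the low-purity library, by 0.79 to 1.75 on the log2(RPKM + 1) scale, and all 5 cpr genes were higher too, by 0.03 to 0.94. Of 16 spp genes 13 were lower in the low-purity library, with a median of -0.43. Of 6 lys genes 5 were higher (median 0.45) and of 4 ilys genes 3 were lower (median -0.93). The share of all genes higher or lower by any amount was not worked out, so these counts by family are a description. The saposin-like genes that went with the proteases were spp-8 (124.7 against 50.84 RPKM), spp-10 (88.55 against 49.44 RPKM) and spp-6 (1.175 against 0.1176 RPKM), named after their values were seen.

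Sperm of fog-2 males was set against the same high-purity CB4856 library, so both comparisons share it. The 6 asp genes were higher in fog-2 sperm by 0.44 to 1.90, and 12 of 16 spp genes were lower, with a median of -0.68, where the median was 0.50 over the 38 genes and 0.21 over all genes. Of 5 cpr genes 4 were higher (median 0.72), of 7 lys genes 6 (1.18) and of 4 ilys genes 3 (0.43). These counts by family are a description here too, with no share over all genes worked out. Of 38 genes, 3 were 4-fold higher and 1 was 4-fold lower in fog-2 sperm, where 4.87% and 1.67% of all genes were. The higher ones were ilys-2, lys-4 (27.33 against 3.473 RPKM) and lys-7 (108.2 against 20.65 RPKM), and the lower one was ilys-5 (14.92 against 63.51 RPKM).

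**Figure D4:**
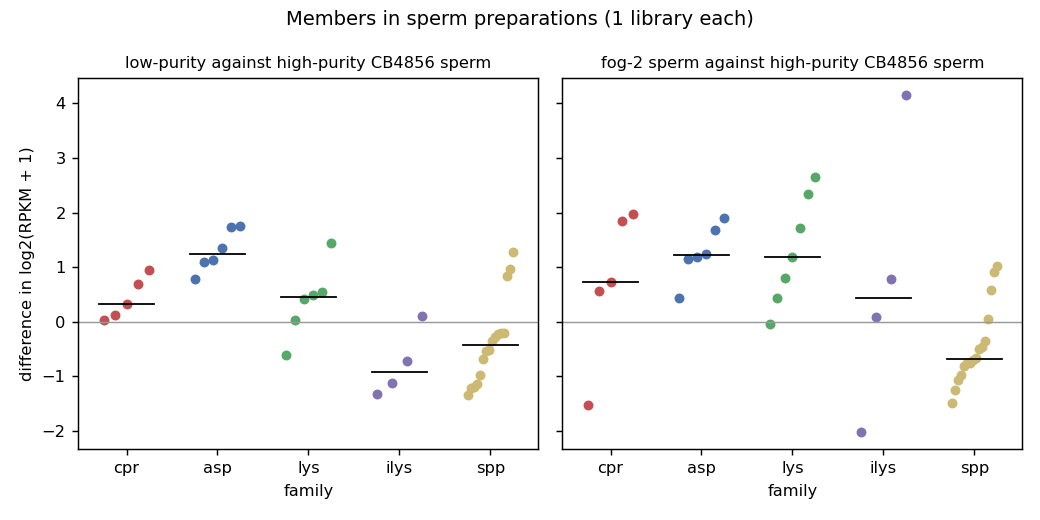
Difference in log2(RPKM + 1) between sperm preparations for each gene with at least 1 RPKM in either library, by family, with a line at the family median. All asp points are above 0 in both panels, and most spp points are below 0.

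The sperm libraries give separate values for the genes that differed between the worm strains. On the log2(RPKM + 1) scale, high-purity CB4856 sperm minus fog-2 sperm was -2.66 for lys-4, -1.84 for cpr-5 and 1.53 for cpr-4, each in the direction seen in CB4856 minus maternal-strain worms (-3.47, -2.01 and 1.47). Low-purity CB4856 sperm lay on the same side for these 3 genes, with lys-4 at 4.934, cpr-5 at 15.20 and cpr-4 at 389.7 RPKM, against 27.33, 52.15 and 132.2 RPKM in fog-2 sperm. For lys-6 the sperm levels were all under 0.5 RPKM. With the high-purity library the direction was the opposite for ilys-5 (2.02 in sperm, -1.13 in worms), spp-23 (1.25 and -1.01) and lys-2 (-0.44 and 1.01). With the low-purity library it was the opposite for ilys-5 (38.19 against 14.92 RPKM in fog-2 sperm), spp-23 was at a like level (20.95 against 20.15 RPKM) and lys-2 lay in the direction of the worms (100.6 against 96.75 RPKM). With 1 sperm library per preparation, none of these differences was tested.

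Small RNAs complementary to mRNAs, which in C. elegans are made by RNA-dependent RNA polymerases and guide Argonaute proteins, were almost absent from these genes. In the small RNA libraries, values are RPM, reads scaled to the total of all reads in the class tables, which held 8.103 M reads for N2 oocytes, 15.32 M for TX189 embryos, 5.375 M for hybrid embryos and 9.546 M for fog-2 sperm. At least 10 RPM of antisense reads were found for 0 of the 50 genes in oocytes, where 30.0% of all 21222 genes reached that level, 0 in TX189 embryos (27.7%), 0 in hybrid embryos (26.9%) and 1 in fog-2 sperm (21.8%). With 1 read worth 0.0653 to 0.186 RPM, depth did not limit this count. The median over the 50 genes was 0 RPM in oocytes, sperm and hybrid embryos and 0.0653 RPM in TX189 embryos, against 0.419 to 0.740 RPM over all genes.

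The exception was asp-6 in fog-2 sperm, with 118.9 RPM of antisense reads (1135 reads). Its antisense signal was 0.494 RPM in oocytes (4 reads), 1.697 RPM in TX189 embryos (26 reads) and 0.186 RPM in hybrid embryos (1 read). The next gene in sperm was asp-4 at 0.943 RPM. In oocytes and TX189 embryos the highest values belonged to spp-10, at 7.775 and 8.418 RPM, with 1.488 RPM in hybrid embryos and 0.105 RPM in sperm. The gene cpr-6 had 6.171 RPM in oocytes, 2.937 RPM in TX189 embryos and 1.488 RPM in hybrid embryos, and 0 reads in sperm, which allows 3 reads. Each is a single library, and no test was made.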

How the data were processed

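RNA was measured in 15 mRNA and 6 small RNA libraries. The submitters' processing notes name BWA with no version. The build and annotation used are not given in the sources used here. The mRNA table holds RPKM values deposited by the authors, with blanks taken as 0. The small RNA class tables hold a deposited signal that is a multiple of 1 constant per library, which was rescaled to RPM over the summed reads of 8 such tables. Of the value columns of each, 12 matched no sample without doubt and were not used, among them those of whole worms. Reads, lengths and depth of the replicated mRNA libraries were recovered from the RPKM steps: 16652 of 16865 genes with at least 4 values were whole multiples of 1 read. Low read numbers were more often even than odd (56.1 to 80.5%), so dispersion was taken over read pairs.

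Members, gene lists and tests were chosen with earlier results of these data known. The tests were made by limma 3.58.1, run in R 4.3.3 with a trended variance, on log2(RPKM + 1), in 1 fit of the 4 replicated groups over 11394 genes with at least 1 RPKM in at least 3 of 12 libraries, with two-sided p-values adjusted by Benjamini and Hochberg over all of them. This scale understates changes of low genes. The fit was tested on simulated data, where it made too many calls among unchanged genes between the embryo groups; a fit with a spread per group made fewer, and its values are given beside that comparison. Libraries with no replicate were compared at a 4-fold difference without a test. Genes are named by rule: the 4 highest of each family, genes called between worm strains or embryo library types, the 3 highest in poly(A) embryos and in each sperm library, and tested genes not called in embryos. Other genes named were chosen after their values were seen.

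Labels give the groups the same replicate numbers without saying what they share. Deviations of same-numbered libraries correlated at 0.28, 0.26 and 0.71 between the worm strains and at 0.20, 0.19 and 0.25 between the embryo groups, and at 0.05, 0.05 and 0.09 between poly(A) embryos and maternal-strain worms. Since replicates 1 and 2 are 1 sample, these 3 values rest on a single contrast.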

Additional observations from a re-analysis of the deposited data

Results flagged for a closer look

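Some of these genes carried small RNA reads of the sense strand, which the comparisons above do not use. The lysozyme gene ilys-3 had 90.58 RPM of sense reads in TX189 embryos and 48.71 RPM in fog-2 sperm, with 4.443 RPM in oocytes and 7.256 RPM in hybrid embryos, while its mRNA was at 0 in every embryo library and at 3.905 RPKM in fog-2 sperm. The gene lys-6 had 17.16 RPM of sense reads in TX189 embryos and 1.116 RPM in hybrid embryos. The gene asp-4 had 11.91 RPM in hybrid embryos and 4.046 RPM in TX189 embryos. There is 1 library of each kind and no control library, and the source of these reads was not tested.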

How the results depend on the processing

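Members called lower in poly(A) embryos than in maternal-strain worms numbered 28 to 31 under every alternative run. With quantile normalization, and without replicates 1 and 2 of the poly(A) embryos, 1 gene, spp-13, was called higher, and quantile normalization turned spp-22 to 0.48. Between worm strains the count lower was 2 with a pseudocount of 0.1 and 3 with a pseudocount of 5 or without replicates 1 and 2 of either strain; leaving out 1 library each gave 3 to 5. The count higher was 1 with a pseudocount of 0.1 or 5, median centring or each library as a sample, and 1 to 3 without 1 library. Differences that turned sign there were small: ilys-4 (-0.28, quantile normalization), spp-17 (-0.12, median centring), spp-22 (-0.05 with median centring, -0.38 with quantile normalization) and asp-1 (-0.18 with median centring, -0.04 with quantile normalization, -0.02 with each library as a sample, -0.01 without replicates 1 and 2 of CB4856 worms, and -0.25 to 0.14 without 1 library). Between embryo library types the count lower was 2 with a pseudocount of 0.1 and 0 with a pseudocount of 5, with only the 2 groups compared and without RiboMinus replicates 1 and 2. The count higher was 6 with a pseudocount of 0.1, 1 with a pseudocount of 5, with no filter or with a spread per group, 4 with median centring or each library as a sample, 0 with only the 2 groups, and 2 to 4 without 1 library. Differences that turned sign were cpr-6 (-0.09 with quantile normalization, -0.01 without poly(A) replicates 1 and 2, -0.02 to 0.15 without 1 library), asp-6 (-0.35 to 0.73 without 1 library, -0.29 without RiboMinus replicates 1 and 2), lys-7 (-0.35 to 0.07 without 1 library, 0.07 without RiboMinus replicates 1 and 2), lys-4 (0.04 with median centring, -0.19 to 0.12 without 1 library, 0.01 without RiboMinus replicates 1 and 2) and spp-13 (-0.25 to 0.43 without 1 library, -0.02 without RiboMinus replicates 1 and 2). Without 1 library, cpr-5 ranged from -0.31 to 0.08, lys-8 from -0.28 to 0.08 and ilys-5 from -0.32 to 0.02. Past a 4-fold difference, low-purity against high-purity sperm had 4 genes with a pseudocount of 0.1 and 13 at 2-fold, and fog-2 against high-purity sperm had 7 with a pseudocount of 0.1, 2 with a pseudocount of 5 and 18 at 2-fold. The shares over all genes at these sperm settings were not worked out. Antisense reads of at least 1 RPM were found for 4 members in oocytes, where 47.6% of all genes had them. The counts were 5 in TX189 embryos (45.4%), 3 in hybrid embryos (44.4%) and 1 in fog-2 sperm (43.0%). Over all genes tested, a pseudocount of 0.1 gave 238 lower and 1620 higher between worm strains, and a pseudocount of 5 gave 88 and 608. Between embryo library types these counts were 1108 and 1784, and 773 and 1020. The causes were not tested.

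With the replicate number as a replicate block, the counts were 31 lower and 0 higher for embryos against worms, 5 lower and 2 higher between worm strains and 1 lower and 2 higher between embryo library types, the same as without the pairing. Leaving out replicates 1 and 2, or 3, leaves a group with 1 sample, which is assumed to vary like the other groups. The alternatives with replicates 1 and 2 left out and with a spread per group, and the ratios with embryo libraries left out, were chosen after seeing the data. The planned search for GATA letters in promoters was not run. The RiboMinus libraries, at 4.56 to 13.88 M reads, limit what can be said of genes under 1 RPKM there.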
